A study of Homo sapiens with 8 samples.

Results

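The transcription factors that set intestinal and hepatic identity were read from Caco-2 cells in which ESRP1, an epithelial RNA-binding protein that regulates splicing, had been overexpressed or silenced. The set was fixed by name and held 8 genes: HNF4A, HNF4G, FOXA1, FOXA2, CDX1, CDX2, GATA4 and GATA6. Every probe that the platform annotation assigned to one of them was taken, which gave 9 probes of 7 genes among 47322 probes on the array. No probe of HNF4A was named in that annotation, and HNF4A is not analysed here. Of the 9 probes, 4 passed the detection filter described below (FOXA1, 1 of 3 FOXA2 probes, CDX2 and GATA6), and 5 did not (HNF4G, CDX1, GATA4 and the other 2 FOXA2 probes).

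Caco-2 is an established human colorectal cancer line that grows as an epithelial monolayer. ESRP1-overexpressing cells carried the ESRP1 reading frame in the pLX304 lentivirus (blasticidin selection) and were set against Empty cells, the overexpression control. ESRP1-silenced cells carried an shRNA named sh4 in the pLKO.1 lentivirus (puromycin selection), so that 1 hairpin stood for silencing, and were set against Scr cells, the scramble control. Each group had 2 arrays, and the labels do not say whether these were separate cultures, so p-values measure only the spread between arrays, which may be technical. ESRP1-overexpressing and Empty arrays shared 1 chip, ESRP1-silenced and Scr arrays the other, and a difference between Empty and Scr cannot be told apart from a difference between chips.

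In the developing and adult gut, these factors act together. FOXA proteins are forkhead factors that can bind closed chromatin and open it, GATA factors are zinc finger proteins that specify endoderm, HNF4 factors are nuclear receptors that maintain the differentiated programme of hepatocytes and enterocytes, and CDX homeobox factors give the hindgut and its epithelium their intestinal character. Liver and intestine share most of them, whereas CDX1 and CDX2 are intestinal. Caco-2 cells are known to express secretory liver genes beside enterocyte genes.

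A total of 4 promoters are shown, as examples of windows that hold a short core motif of these families. CDX2 is the detected factor whose window holds one, and NR5A2, MTTP and AFP are genes that changed in ESRP1-overexpressing cells (limma adjusted p under 0.05, named a call below). They come from RefSeq (GRCh38.p14) and run from 250 bases before to 50 bases after the start, 5′ to 3′ on the gene's strand. The letters searched on both strands were TGTTTAC for FOXA, found in 3.42% of 35116 promoters of 300 bases, AGATAA for GATA (10.3%), TTTATG for CDX (10.6%) and CAAAGNNCA for HNF4 (5.28%). Capitals mark the matches, and no match overlapped another. These 4 windows were chosen after the values were seen, and a match describes letters only. In CDX2 (chr13:27969266-27969565, minus strand) a FOXA match began 13 bases and a GATA match 119 bases before the start, both read on the opposite strand. NR5A2 (chr1:200042341-200042640, plus strand) held a FOXA match 105 bases before the start, read on the opposite strand. MTTP (chr4:99574574-99574873, plus strand) held a GATA match 36 bases before the start, read on the gene's strand. AFP (chr4:73435971-73436270, plus strand) held CDX matches 158 and 89 bases before the start, both read on the opposite strand. NR5A2 and MTTP each have another window, with other matches, not shown. Of the other called genes PPARG has 1 window with a GATA match and SERPINA1 1 with a CDX match, not shown. The windows of FOXA3, ALB, CLDN2, ALPI and NPC1L1 held none of the 4 motifs, and SOX9, APOB and MEP1A had no window. Among known targets with a window, FOXA letters were in 0 of 3 FOXA targets and GATA letters in 0 of 6 GATA4 and GATA6 targets. CDX letters were in 4 of 9 CDX targets and HNF4 letters in 2 of 13 HNF4A targets.
CDX2: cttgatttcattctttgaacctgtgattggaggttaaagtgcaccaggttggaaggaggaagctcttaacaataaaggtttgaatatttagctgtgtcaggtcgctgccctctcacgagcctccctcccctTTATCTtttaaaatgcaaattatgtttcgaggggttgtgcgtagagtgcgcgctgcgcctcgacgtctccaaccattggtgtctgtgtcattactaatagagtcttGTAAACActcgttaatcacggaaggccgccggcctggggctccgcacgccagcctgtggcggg
NR5A2: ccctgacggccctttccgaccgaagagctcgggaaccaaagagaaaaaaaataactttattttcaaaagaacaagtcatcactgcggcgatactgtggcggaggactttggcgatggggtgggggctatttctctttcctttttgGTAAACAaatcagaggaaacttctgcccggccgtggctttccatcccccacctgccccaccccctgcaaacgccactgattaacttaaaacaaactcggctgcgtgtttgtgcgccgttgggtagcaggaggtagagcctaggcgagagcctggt
MTTP: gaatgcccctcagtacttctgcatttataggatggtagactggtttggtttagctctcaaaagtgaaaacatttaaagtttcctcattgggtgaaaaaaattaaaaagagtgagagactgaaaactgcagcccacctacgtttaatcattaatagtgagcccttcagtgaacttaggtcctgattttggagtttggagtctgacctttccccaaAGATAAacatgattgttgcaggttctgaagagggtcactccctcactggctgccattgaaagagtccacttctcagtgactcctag
AFP: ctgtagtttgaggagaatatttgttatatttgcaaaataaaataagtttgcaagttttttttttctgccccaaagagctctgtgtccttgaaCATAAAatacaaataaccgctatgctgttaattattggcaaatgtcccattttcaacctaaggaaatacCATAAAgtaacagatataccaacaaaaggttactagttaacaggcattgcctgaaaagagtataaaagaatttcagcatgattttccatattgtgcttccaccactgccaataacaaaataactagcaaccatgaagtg
Promoters of 4 of the 8 factors were in the table, and the windows of FOXA1 and GATA6 held none of the 4 motifs.

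The chips differed in brightness. Median signals were 167.1 to 184.7 on the chip of ESRP1-overexpressing and Empty cells and 192.6 to 227.3 on the chip of ESRP1-silenced and Scr cells, without overlap. The numbers of detected probes, meaning a signal above the negative control probes at a detection p under 0.01, were 15153 to 15627 and 16966 to 17535 on the same chips. Levels below are background-corrected, quantile-normalized log2 values, which allow a comparison of one probe between arrays but not of one probe with another. ESRP1 itself had log2 levels of 9.75 and 9.96 in ESRP1-overexpressing cells, against 8.26 and 7.91 in Empty cells (log2 fold change 1.77, limma adjusted p = 0.0038). In ESRP1-silenced cells it was not detected on either array, and it was at least 3.09-fold lower than in Scr cells (limma adjusted p = 0.047), a bound set by the lowest level of a detected probe. Of 8 intestinal epithelial markers, 6 were detected on every array (EPCAM, KRT8, KRT18, CDH1, CDH17 and VIL1), KRT20 on 1 Scr array only and LGALS4 on none. Among markers of other cell types, PTPRC, CD3E, DCN, COL3A1, VWF, KDR, CDH5 and TIE1 were not detected, and LUM, PDGFRB, COL1A1, COL1A2, PECAM1, CD14 and CD68 were detected on some or all arrays. None of the markers was called in either comparison (limma). The summed signal of the 8 epithelial markers, which was not normalized, was 82312 to 84435 in ESRP1-overexpressing cells, against 59297 to 60635 in Empty cells. In normalized values the largest log2 fold change among them was 0.68 for EPCAM (limma unadjusted p = 0.0057, adjusted p = 0.062). Other EPCAM probes gave 0.47 and 0.02 (limma adjusted p = 0.16 and 0.95). PECAM1, an endothelial marker detected on 1 ESRP1-overexpressing array and on no Empty array, had a fitted value of 1.03 (limma adjusted p = 0.10), and the other 4 endothelial markers were not detected. In ESRP1-silenced cells CD14 had a log2 fold change of 0.85 (limma adjusted p = 0.059) and CD68 of -0.19 (limma adjusted p = 0.59), with PTPRC and CD3E not detected. The part of these markers in the values below was not tested.

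None of the 4 detected factors differed between ESRP1-overexpressing and Empty cells at an adjusted p under 0.05 (limma, Benjamini-Hochberg adjustment over all 18231 probes tested), where 7.43% of all probes were called, 4.06% higher and 3.36% lower. None differed between ESRP1-silenced and Scr cells either, where 0.132% of all probes were called. The median log2 fold change of the 4 genes was -0.03 with overexpression and 0.18 with silencing, beside medians of 0.00 and -0.02 over all genes. At an unadjusted p under 0.05, limma placed 1 of the 4, FOXA2, lower in ESRP1-overexpressing cells and none of the 4 on either side in ESRP1-silenced cells, against 4729 and 2467 of all probes.

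**Figure D1:**
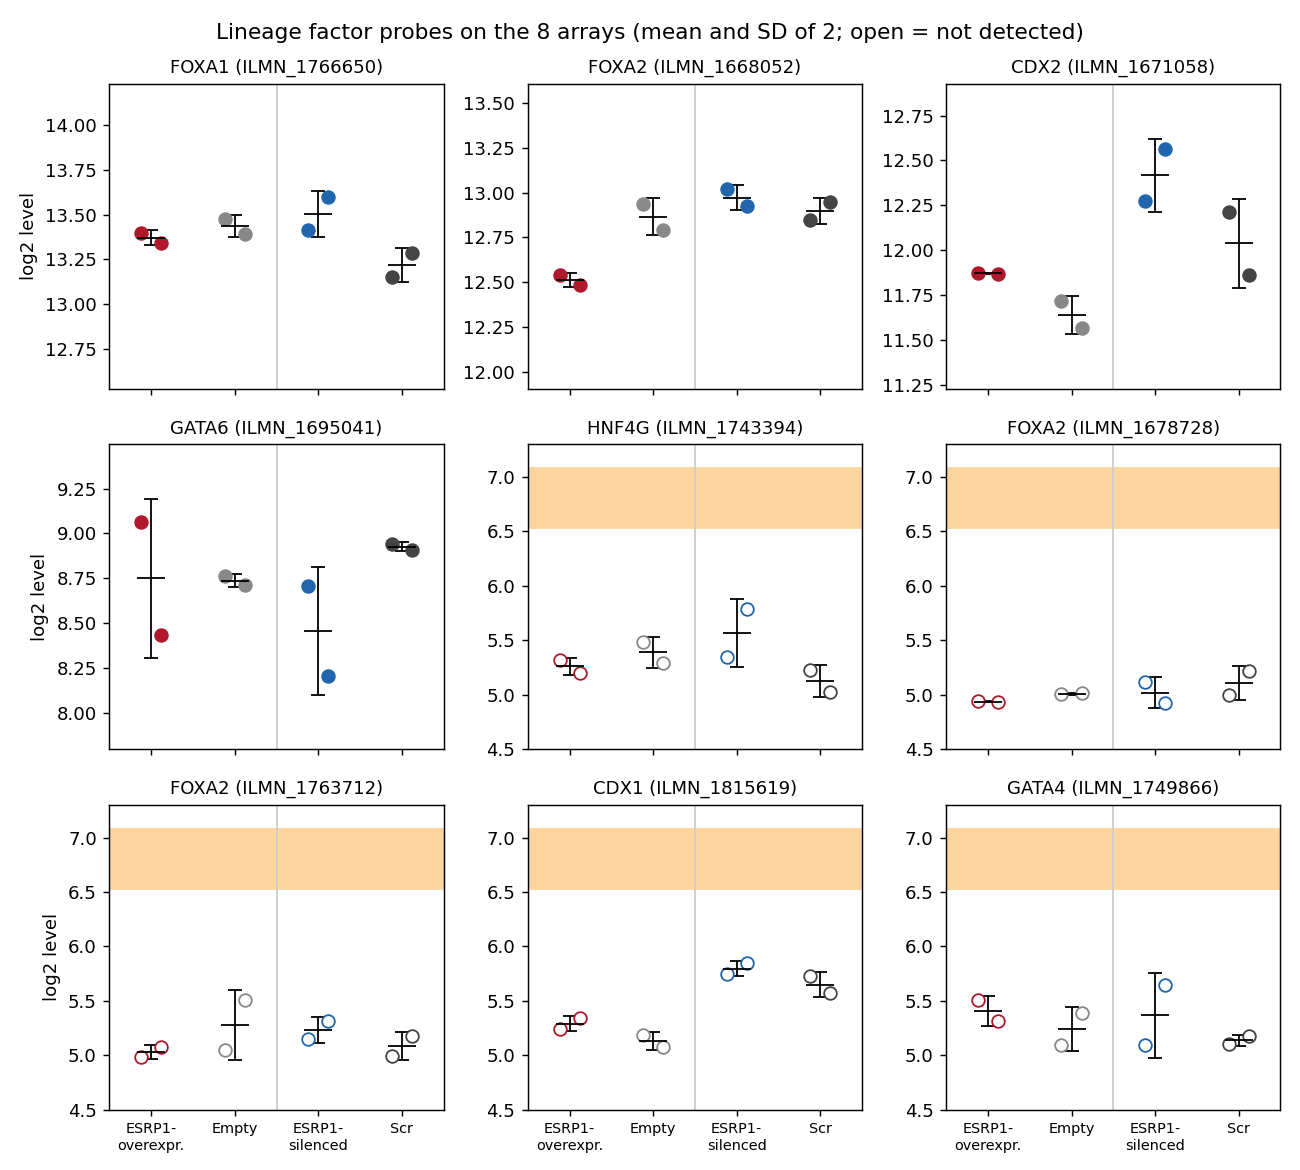
Log2 level of each of the 9 probes on the 8 arrays, with 1 panel per probe, points for arrays and bars for the mean ± SD of 2 arrays (log2 axes placed differently per panel). Filled points are detected and open points are not; the orange band spans, over the arrays, the lowest log2 level of any detected probe (6.53 to 7.08). All 5 undetected probes lie below the band. The points of the detected FOXA2 probe in ESRP1-overexpressing cells lie below those of Empty cells, where 57.7% of all probes did not overlap, in either direction.

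HNF4G, the nuclear receptor related to HNF4A that is found mainly in the gut, was not detected on any of the 8 arrays. Its signals averaged 148.4 ± 7.92 in ESRP1-overexpressing cells and 149.4 ± 5.09 in Empty cells, and 198.75 ± 13.8 in ESRP1-silenced cells and 152.15 ± 26.2 in Scr cells (SD, n = 2 each). The lowest of its 8 detection p-values was 0.10. These signals lay within the range of the negative control probes, and HNF4G RNA below the limit of detection could not be measured.

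FOXA1, the forkhead factor of endodermal and hormone-responsive epithelia, gave signals between 7151.5 and 16154.2. Its log2 levels were 13.40 and 13.34 in ESRP1-overexpressing cells, against 13.48 and 13.39 in Empty cells. The groups overlapped, and the log2 fold change of -0.06 (SE 0.12) had a 95% interval of 0.78-fold to 1.17-fold (limma adjusted p = 0.79). Only 15.3% of all probes had a smaller absolute change in that comparison. In ESRP1-silenced cells FOXA1 had log2 levels of 13.41 and 13.60, against 13.15 and 13.29 in Scr cells. Both ESRP1-silenced arrays were above both Scr arrays, in a comparison where 45.4% of all probes did not overlap, in either direction. The log2 fold change of 0.28 (SE 0.12) did not pass the test (limma unadjusted p = 0.0525, adjusted p = 0.37), with an interval of 1.00-fold to 1.49-fold. By group mean FOXA1 was ordered ESRP1-silenced, Empty, ESRP1-overexpressing and Scr, and the first 3 overlapped as neighbours. In this order and those of the factors below, a step between groups of different chips cannot be told apart from a chip difference.

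FOXA2, the forkhead factor that endoderm requires for its liver and pancreas programmes, had 3 probes. The detected probe (ILMN_1668052) had log2 levels of 12.54 and 12.49 in ESRP1-overexpressing cells, against 12.94 and 12.79 in Empty cells. Both ESRP1-overexpressing arrays were thus below both Empty arrays, in a comparison where 57.7% of all probes did not overlap, in either direction. The change was 0.78-fold (log2 -0.35, SE 0.12) with an interval of 0.65-fold to 0.95-fold, and it did not pass the threshold (limma unadjusted p = 0.019, adjusted p = 0.12). Over 19 other settings the log2 value stayed between -0.42 and -0.28, and the adjusted p ran between 0.025 and 0.33. It was under 0.05 in 1 of them, limma with a trended and robust variance prior. The change was moderate among all probes, of which 65.8% changed less.

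In ESRP1-silenced cells, the same FOXA2 probe had log2 levels of 13.02 and 12.92, against 12.85 and 12.95 in Scr cells. These overlapped (log2 fold change 0.08, SE 0.12, limma adjusted p = 0.82), and the interval was 0.87-fold to 1.28-fold. The difference between the overexpression and the silencing change of FOXA2 was -0.43 (SE 0.16, limma unadjusted p = 0.035, adjusted p = 0.20). The other 2 FOXA2 probes were not detected on any array. ILMN_1678728 is annotated to the same transcript variant as the detected probe and ILMN_1763712 to another variant, so the FOXA2 values rest on 1 probe of 3. The order of its group means was ESRP1-silenced, Scr, Empty and ESRP1-overexpressing, and only the last step separated neighbours that did not overlap.

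CDX1, a homeobox factor of the intestinal crypt, was not detected on any array. Its signals averaged 150.3 ± 2.69 in ESRP1-overexpressing cells and 132.45 ± 3.61 in Empty cells. They averaged 218.05 ± 8.13 in ESRP1-silenced cells and 195.9 ± 24.5 in Scr cells (SD, n = 2 each). The lowest detection p, 0.083, belonged to an ESRP1-silenced array and came closest to detection among the 5 undetected probes.

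CDX2, the homeobox factor that defines intestinal epithelium and is used as a marker of it in pathology, was detected throughout, with signals between 2112.4 and 8035.8. Its log2 levels were 11.87 and 11.87 in ESRP1-overexpressing cells, against 11.71 and 11.56 in Empty cells. The groups did not overlap, as for 57.7% of all probes in that comparison, and the log2 fold change of 0.23 (SE 0.16) did not pass the test (limma adjusted p = 0.43, interval 0.89-fold to 1.54-fold). In ESRP1-silenced cells CDX2 had log2 levels of 12.27 and 12.56, against 12.21 and 11.86 in Scr cells. Here too the groups did not overlap, with a gap of a few hundredths between the nearest arrays. The log2 fold change of 0.38 (SE 0.16) had an interval of 0.99-fold to 1.71-fold (limma unadjusted p = 0.055, adjusted p = 0.38). Both point estimates of CDX2 lay above 0, with loss as with gain of ESRP1, and their difference was -0.15 (SE 0.23, limma adjusted p = 0.76). Its group means were ordered ESRP1-silenced, Scr, ESRP1-overexpressing and Empty, and of these neighbours Scr and ESRP1-overexpressing overlapped.

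GATA4, the GATA factor of the proximal intestine and heart, was not detected on any array. Its signals averaged 158.65 ± 11.7 in ESRP1-overexpressing cells and 140.1 ± 16.8 in Empty cells, and 179.9 ± 25.9 in ESRP1-silenced cells and 152.7 ± 6.22 in Scr cells (SD, n = 2 each). GATA6, which is expressed along the whole intestine, was detected on all 8 arrays at signals between 389.6 and 841.5.

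GATA6 had log2 levels of 9.06 and 8.43 in ESRP1-overexpressing cells, against 8.76 and 8.71 in Empty cells. The pair of ESRP1-overexpressing arrays spanned both Empty arrays, and the log2 fold change was 0.01 (SE 0.24, limma adjusted p = 0.98, 95% interval of the log2 value -0.56 to 0.59). In ESRP1-silenced cells the log2 levels were 8.71 and 8.21, against 8.94 and 8.91 in Scr cells. Both ESRP1-silenced arrays were below both Scr arrays. The log2 fold change of -0.47 (SE 0.24) did not pass the test (limma unadjusted p = 0.094, adjusted p = 0.44), and its interval of 0.49-fold to 1.08-fold was the widest of the silencing intervals on the log2 scale. In that comparison 89.1% of all probes changed less than GATA6, 82.3% less than CDX2 and 70.9% less than FOXA1. For GATA6 the order was Scr, ESRP1-overexpressing, Empty and ESRP1-silenced, and the first 3 overlapped as neighbours. The arrays of 3 of the 4 factors did not overlap between ESRP1-silenced and Scr cells, where 45.4% of all probes did not.

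None of the factors was called for a difference between the overexpression and the silencing change (limma), where 3.2% of all probes were called. The 5 undetected probes gave 0 detected values of 40, with signals of 118.5 to 223.8 and log2 levels of 4.92 to 5.84. Fitted without the detection filter, none of them was called in any of the 3 contrasts (limma adjusted p between 0.51 and 0.99).

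After the mean of each chip was subtracted, Pearson's r over the 8 arrays differed in sign between pairs of the detected factors. It was 0.54 for FOXA1 with CDX2, 0.37 for FOXA1 with FOXA2 and 0.01 for FOXA2 with GATA6. It was -0.34 for FOXA2 with CDX2, -0.57 for CDX2 with GATA6 and -0.65 for FOXA1 with GATA6. Without this subtraction r was 0.35 for FOXA2 with CDX2 and -0.06 for FOXA2 with GATA6, and the other pairs kept their sign. These arrays share groups and chips, and the values are a description.

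Other factors of the same lineages did change, in lists that, like those of targets below, were chosen with earlier results of these data known. The 4 of 14 listed liver and shared factors that were measured had a median log2 fold change of 0.68 in ESRP1-overexpressing cells, and 2 of them rose, FOXA3 and NR5A2, where 4.41% of all genes rose, 3.66% fell and 8.07% were called in all. FOXA3, the third forkhead factor of the FOXA family, had log2 levels of 11.09 and 10.99 in ESRP1-overexpressing cells, against 10.12 and 10.12 in Empty cells. It rose 1.90-fold (log2 0.92, SE 0.12, limma adjusted p = 0.0089). NR5A2, a nuclear receptor of bile acid and cholesterol metabolism that also acts in crypts, had log2 levels of 9.26 and 9.17, against 8.07 and 8.17 in Empty cells. It rose 2.14-fold (log2 1.10, SE 0.12, limma adjusted p = 0.0055), and its second probe rose 2.83-fold (limma adjusted p = 0.012).

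FOXA3 thus rose in ESRP1-overexpressing cells, whereas the FOXA1 value was near 0 and that of FOXA2 was below it. The intervals of the log2 fold change were 0.64 to 1.21 for FOXA3, -0.35 to 0.23 for FOXA1 and -0.63 to -0.08 for FOXA2, and the difference between the paralogs was not tested.

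Of 15 other intestinal factors, 10 were measured. SOX9, a factor of crypt progenitors, and PPARG, a lipid-sensing nuclear receptor of the colon, rose in ESRP1-overexpressing cells. By the brightest probe none of the 10 fell and 8 were not called, where 4.41% of all genes rose and 3.66% fell. ELF3 (log2 -0.49, limma adjusted p = 0.085) was lower at an unadjusted p under 0.05. So was VDR, not detected in ESRP1-overexpressing cells (fitted value -0.75, limma adjusted p = 0.11). SOX9 had log2 levels of 11.67 and 11.47 in ESRP1-overexpressing cells, against 10.35 and 10.21 in Empty cells, a 2.45-fold change (log2 1.29, SE 0.13, limma adjusted p = 0.0035). PPARG rose 1.66-fold (log2 0.73, SE 0.14, limma adjusted p = 0.029), and its second probe by 0.81 (limma adjusted p = 0.013). KLF4, a factor of differentiated epithelium, had probes that disagreed in their call. Neither probe was detected in ESRP1-overexpressing cells. The brighter one was not called (fitted value -0.62, interval 0.38-fold to 1.10-fold, limma adjusted p = 0.28). The other was at least 1.23-fold lower (fitted value -1.31, limma adjusted p = 0.0065). Of 8 partners and competitors at the binding sites of the set, 3 were measured and none was called, the largest change being -0.32 for RXRA, the shared partner of many nuclear receptors (limma adjusted p = 0.25).

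In ESRP1-silenced cells none of these 17 measured genes was called, nor any target gene described below (limma), where 0.157% of all genes were called. The largest values were 0.36 for HHEX among liver factors, -0.56 for KLF4 among intestinal factors and 0.59 for RXRA among partners (limma adjusted p = 0.42, 0.49 and 0.22).

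**Figure D2:**
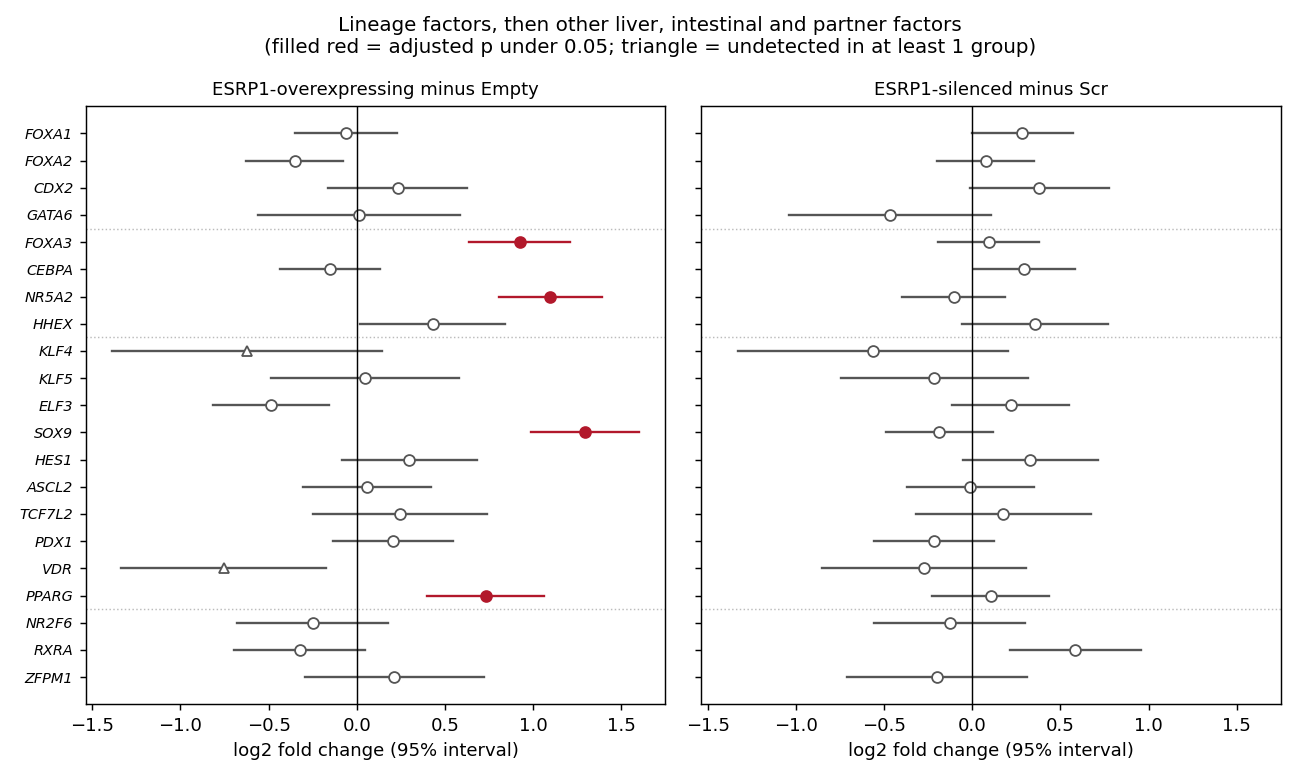
Log2 fold change with its unadjusted 95% interval for the 4 detected factors of the set (top) and, below each dotted line, the other liver and shared factors, the other intestinal factors and the partners, at left for ESRP1-overexpressing minus Empty and at right for ESRP1-silenced minus Scr. Filled red points have an adjusted p under 0.05, and triangles mark probes undetected in at least 1 group; FOXA3 (0.92), NR5A2 (1.10), SOX9 (1.29) and PPARG (0.73) are red at left and no point is red at right.

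Genes known as targets of the set were read next. Of 21 listed targets of HNF4A, which itself is not analysed here, 11 were measured, and in ESRP1-overexpressing cells 3 rose, none fell and 8 were not called (median log2 fold change 0.43, against 0.00 over all genes, of which 4.41% rose and 3.66% fell). MTTP, which loads lipid onto apolipoprotein B, had log2 levels of 9.25 and 9.43 in ESRP1-overexpressing cells, against 5.41 and 5.18 in Empty cells, where it was not detected. It was at least 5.07-fold higher (limma adjusted p = 5.8e-05). APOB, the apolipoprotein itself, rose 1.79-fold (log2 0.84, SE 0.11, limma adjusted p = 0.0077). SERPINA1, which encodes alpha-1 antitrypsin, rose 1.63-fold (log2 0.70, SE 0.14, limma adjusted p = 0.033).

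Of 7 FOXA targets, 3 were measured and 2 rose, where 4.41% of all genes rose and 3.66% fell. AFP, the fetal serum protein of liver, had log2 levels of 12.81 and 12.83 in ESRP1-overexpressing cells, against 10.96 and 10.93 in Empty cells, a 3.65-fold change (log2 1.87, SE 0.14, limma adjusted p = 0.0012). ALB, which encodes serum albumin, rose 1.93-fold (log2 0.95, SE 0.15, limma adjusted p = 0.016), and its second probe by 1.54 (limma adjusted p = 0.0042). FOXA1 and FOXA2 were not called on the same arrays.

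Of 15 CDX targets, 10 were measured, and the list split. MEP1A, a brush border metalloprotease, rose 1.61-fold (log2 0.69, SE 0.13, limma adjusted p = 0.031). CLDN2, a pore-forming tight junction protein, was not detected in Empty cells and was at least 1.34-fold higher in ESRP1-overexpressing cells (limma adjusted p = 0.0067). ALPI, the brush border alkaline phosphatase, fell, with log2 levels of 5.90 (not detected) and 7.26 in ESRP1-overexpressing cells, against 8.54 and 8.46 in Empty cells (log2 -1.92, SE 0.42, limma adjusted p = 0.043). The other 7 were not called. Of 7 intestinal targets of GATA4 and GATA6, 4 were measured and 1 was called. NPC1L1, the cholesterol uptake transporter, had log2 levels of 6.77 (not detected) and 7.56 in ESRP1-overexpressing cells, against 9.34 and 9.12 in Empty cells (log2 -2.06, SE 0.27, limma adjusted p = 0.0094). Of all genes 4.41% rose and 3.66% fell in that comparison. Some genes stand in more than 1 of these lists.

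In total 13 of the 42 genes measured in these factor and target lists were called in ESRP1-overexpressing cells, 11 higher and 2 lower. Of all genes 4.41% were called higher and 3.66% lower. The lists were chosen with earlier results of these data known, so the count beside these shares is a description and no test of an excess. Without the first ESRP1-overexpressing array 6 of the 13 remained called, and FOXA3, PPARG, APOB, SERPINA1, ALB, MEP1A and ALPI did not. Without the second Empty array 8 remained, and PPARG, SERPINA1, ALB, MEP1A and ALPI did not. All 13 kept their direction when any single array was left out. In Scr cells, on the other chip, log2 levels were 11.20 and 11.24 for SOX9 and 12.30 and 12.53 for AFP. CLDN2 was detected there, at 8.43 and 8.36. These levels lay above those of Empty cells, as did those of FOXA3, PPARG, MTTP, ALB and NPC1L1. Scr levels of APOB, SERPINA1, MEP1A and ALPI lay below the Empty levels, and those of the brighter NR5A2 probe overlapped them. On the second NR5A2 probe the Scr mean was higher, 8.06 against 7.03 in Empty cells. Such differences cannot be told apart from a difference between chips.

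In ESRP1-silenced cells the gene of largest change in each target list had a log2 fold change of 1.04 for APOH, a plasma glycoprotein of liver, -0.71 for GUCY2C, the guanylin receptor, -0.56 for NPC1L1 and 0.25 for TTR, which carries thyroid hormone. None passed the test (limma adjusted p = 0.098, 0.40, 0.43 and 0.48). MTTP had log2 levels of 6.96 and 6.97 in ESRP1-silenced cells, against 7.81 and 7.75 in Scr cells, and was not called (log2 -0.81, SE 0.13, limma adjusted p = 0.10). SERPINA1 had log2 levels of 13.11 and 12.82 in ESRP1-silenced cells, against 12.27 and 12.09 in Scr cells, and was not called either (log2 0.78, SE 0.14, limma adjusted p = 0.13).

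**Figure D3:**
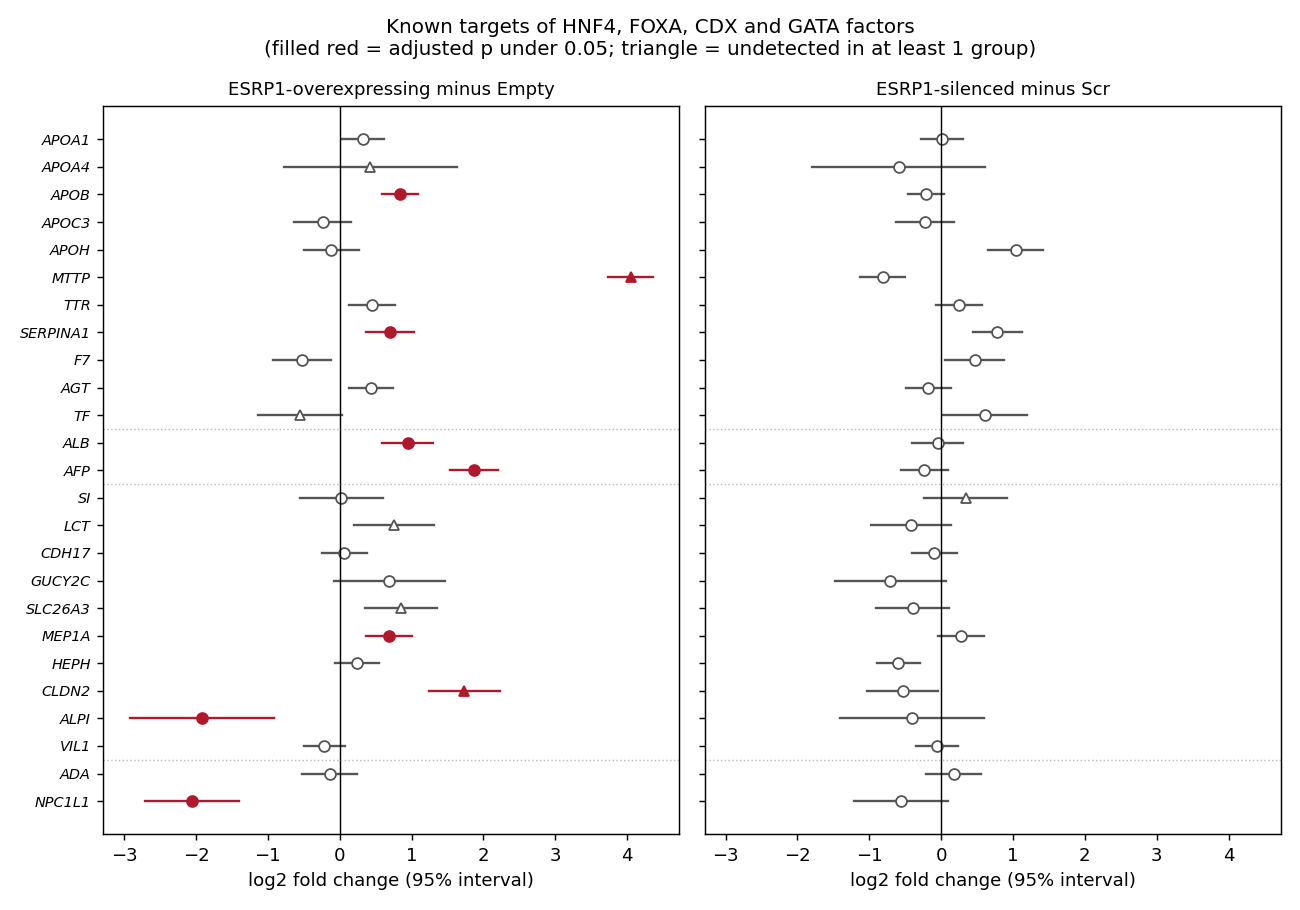
Log2 fold change with its unadjusted 95% interval for the measured targets of HNF4A, FOXA, CDX and GATA factors (top to bottom, dotted lines between lists, a gene of several lists shown once under the first), at left for ESRP1-overexpressing minus Empty and at right for ESRP1-silenced minus Scr. Filled red points have an adjusted p under 0.05, and triangles mark probes undetected in at least 1 group; the 9 red points at left include MTTP, AFP, ALPI and NPC1L1, and none is red at right.

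The genes whose pattern over the 8 arrays was most like that of each detected factor were ranked by Pearson's r after subtraction of the chip means, among 10804 genes. For FOXA2 these were ANXA11 (r = 0.99), PLPBP (0.99) and RIPK2 (0.99), of which RIPK2 was called lower in ESRP1-overexpressing cells (log2 -0.60, limma adjusted p = 0.030). For FOXA1 they were RGL1 (0.98), LRMDA (0.98) and DDX39A (0.97), and for CDX2 ADCK1 (0.98), DNAJC30 (0.98) and MED12 (0.97). For GATA6 they were MEMO1 (0.96), RPSAP9 (0.95) and SKI (0.95). Apart from RIPK2, none of these 12 genes was called in either comparison (limma). The ranking takes the highest r among 10804 genes over 8 arrays that share groups, and it is a description with no test.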

How the data were processed

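RNA from adherent Caco-2 cells was hybridized to Illumina BeadChips, with 4 groups of 2 arrays. The authors deposited raw probe intensity, before any background subtraction or normalization, with a detection p-value for each (88 cells written with a comma were read as 1). A further deposited table holds intensities that the authors had normalized, by a method not given in the sources used here. Signals were processed with neqc of limma 3.58.1 (R 4.3.3), with an offset of 16 and quantile normalization of all 8 arrays. Testing was limited to probes detected (p under 0.01) on 2 or more arrays, 18231 of 47322. One limma fit of 4 groups (4 residual and 2.8 prior degrees of freedom) gave 3 contrasts: ESRP1-overexpressing minus Empty, ESRP1-silenced minus Scr, and their difference. Two-sided p-values were adjusted by Benjamini-Hochberg over all tested probes, with calls under 0.05. The number of arrays limits the precision: an exact permutation test of 2 against 2 cannot go below p = 0.33. Lists use the brightest tested probe per gene. Named genes are the members, all list genes called in either comparison (at most 6 per list and comparison, otherwise the 1 of largest change) and the 3 most similar genes per member. The annotation named 1 gene for 30113 probes, several for 8 and none for 17201. The members and lists were chosen with earlier results of these data known. The test was tried on simulated data. Alternatives covered background correction, normalization, detection filter, arrays in the fit, replicate block, variance prior, t-test and averaging of probes.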

Additional observations from a re-analysis of the deposited data

Results flagged for a closer look

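In 6 of the 42 measured genes of the factor and target lists, the overexpression change (against Empty) differed from the silencing change (against Scr). The test was the limma contrast of the 2 comparisons, where 3.2% of all probes were called and each comparison lies on its own chip. The lists were chosen with earlier results of these data known, so the count is a description. None of the 4 detected lineage factors was among the 6 genes. The difference in log2 fold change was 1.20 for NR5A2 (adjusted p = 0.020), 1.48 for SOX9 (adjusted p = 0.013) and 1.06 for APOB (adjusted p = 0.019). It was 2.10 for AFP (adjusted p = 0.0059). For MTTP it was 4.86 (adjusted p = 0.00026) and for CLDN2 2.27 (adjusted p = 0.015), both fitted values for probes that were not detected in Empty cells. The count takes the brightest probe of each gene. A less bright probe was also called for NR5A2 (1.68, limma adjusted p = 0.040) and for ALB (1.27, limma adjusted p = 0.037). One of KLF4, detected in Empty cells only, was called in the opposite direction (fitted value -1.33, limma adjusted p = 0.029).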

How the results depend on the processing

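Over all settings except 1, none of the 4 detected lineage factors was called in any contrast; with a trended and robust variance prior, 1 was called in ESRP1-overexpressing cells, FOXA2 (log2 -0.35, limma adjusted p = 0.025). The count of all probes called with overexpression, 1354, became 2208 with quantile normalization without background correction, 2140 with the authors' normalized values, 508 without the detection filter, 142 with the 4 arrays of the comparison alone and 2557 with the trended and robust prior. It was 0 by the methods' t-test after Benjamini-Hochberg and 452 by that test's own double filter, and 371 to 1066 with 1 array left out. With silencing the count of 24 became 247, 219, 0, 0 and 549 in the same 5 settings, 46 with each chip normalized separately, 237 with detection on all 8 arrays, 0 and 125 by the methods' t-test, and 0 whichever array was left out, so that ESRP1 itself was then not called either. For the difference the count of 584 became 1249, 1182, 166 (no filter), 1039 (all 8 arrays) and 1640 (trended and robust prior), and 96 to 351 with 1 array left out; the fit on 4 arrays and the t-test were not run for it. The list genes called with overexpression, 13, became 2 on the 4 arrays of the comparison, 0 and 8 by the methods' t-test, and 6 to 12 with 1 array left out. With silencing the count of 0 became 2 without background correction, 2 with the authors' values, 2 with detection on all arrays, 4 with the trended and robust prior, 1 by the t-test's double filter and 1 with the mean of a gene's probes. All 13 genes remained called under both other normalizations, with separate chips, with the replicate block, with the trended prior and with the mean of probes. Without the detection filter 9 of the 13 remained called, and PPARG, SERPINA1, MEP1A and ALPI did not. With detection on all 8 arrays only 9 of the 13 could be tested, and all 9 remained called. The cause was not tested.

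Replicate numbers did not pair the arrays: same-numbered deviations correlated between -0.012 and 0.058. With the replicate number as a block, 1061, 0 and 351 probes were called with overexpression, with silencing and for the difference, and no lineage factor.

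Signs that turned all belonged to values that were not called in the fit of all arrays. Without the second Scr array the difference was 0.028 for CDX2 and 0.010 for SERPINA1. Without the first ESRP1-silenced array it was 0.066 for SERPINA1, and the silencing change was -0.017 for FOXA3, -0.019 for PPARG and 0.15 for ALB (0.11 with the mean of probes). The overexpression change of GATA6 was -0.014 without the second Empty array and -0.30 without the first ESRP1-overexpressing array. With 1 array left out, the differences of CDX2 and SERPINA1 ran between -0.33 and 0.028 and between -0.23 and 0.066, the silencing changes of FOXA3, PPARG and ALB between -0.017 and 0.20, -0.019 and 0.23, and -0.24 and 0.15, and the overexpression change of GATA6 between -0.30 and 0.33. HNF4G, CDX1, GATA4 and 2 FOXA2 probes stayed at the signal of negative controls, so changes below detection could not be seen.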
